A study of Bos taurus with 179 samples.

Results

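A group of 63 genes had at least 1 count in more than 50% of the bovine oocytes of 70–79 μm in diameter and in at most 50% of the oocytes of each of the other 7 size groups. They were 63 of the 17969 genes with a count, or 0.351%. These genes were chosen by this detection pattern, so the difference between 70–79 μm and the other sizes is described here without a test. Of the 63 genes, 22 could be paired with a symbol (FCRLA, TAL2, ADAP2, CREG2, DCLK1, BIVM, SLC35E4, RGS4, MPV17L, HS1BP3, RGR, UNC5A, WDR93, TRIM14, SLC45A2, TMEM95, PTPRR, FGD5, F8, MROH7, AGRN and ZNF74), and 41 are named by their Ensembl ID.

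The study sequenced polyadenylated mRNA of single, denuded growing oocytes from abattoir ovaries of Bos taurus. Fully grown oocytes were aspirated from visible follicles, while growing ones were freed by cutting the cortex in a medium with cilostamide and passed through mesh filters, so the route of collection may go with size. The oocytes that the study kept were 21 of < 60 μm, 25 of 60–69 μm, 23 of 70–79 μm, 24 of 80–89 μm, 21 of 90–99 μm, 18 of 100–109 μm, 19 of 110–119 μm and 14 of > 120 μm in diameter. Libraries were made in 2 replicates, with reads of 150 bp in replicate 1 and 75 bp in replicate 2, and the 70–79 μm group held 16 oocytes of replicate 1 and 7 of replicate 2. The sources used here did not tie an oocyte to an animal, nor give breed or age, so no p-value measures the spread between animals. In the comparisons of sizes and of replicates the p-values rest on counts summed per size and replicate. In the tests on diameter and on oocytes that the study did not keep, they rest on single oocytes.

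A growing oocyte transcribes and stores the mRNA that it will use during meiotic maturation and the first divisions of the embryo, while its diameter increases inside the growing follicle. Transcripts near the detection limit of single-cell libraries are counted in some cells and missed in others, so a share of cells with a count depends on the level of the transcript and on the depth of the library.

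Total counts were 431855 to 7427594 per oocyte at 70–79 μm (median 1839094) and 277126 to 8038061 in the other sizes, with group medians from 923622 at 100–109 μm to 2563427 at < 60 μm. The oocyte identity of the 70–79 μm libraries was checked with the 4 of 15 oocyte markers that could be paired, and BMP15, BTG4, BCAR4 and ACTL8 averaged 1330, 3531, 60.4 and 4.96 CPM (counts scaled to the total of the library). ACTL8 had a count in 65.2% of these oocytes and the other three in all. Markers of other ovarian cells could be paired in part. The 4 paired IDs of the granulosa list, of 11 genes, summed to 0 to 4.31 CPM (median 0) at 70–79 μm and to 0 to 14.2 CPM (median 0) in the other sizes, and FSHR was detected in 26.1% of the 70–79 μm oocytes, 57.1% at < 60 μm, 40% at 60–69 μm, 37.5% at 80–89 μm and 0 to 19.0% in the larger sizes. The other two granulosa markers, AMHR2 and BEX2, were at 4.35% per ID. The 3 of 6 endothelial markers paired summed to 0 to 4.31 CPM at 70–79 μm and 0 to 6.34 CPM elsewhere (medians 0), with CLDN5 detected in 21.7% of the 70–79 μm oocytes and CDH5 and EMCN in none. The 4 of 10 blood and immune markers paired summed to 0 to 3.06 and 0 to 6.31 CPM (medians 0), with CD68 at 43.5%, CCL5 at 4.35% and CD14 and C1QB at 0 counts. The 8 paired IDs of the theca and stroma list summed to 1.44 to 52.3 CPM (median 22.9) at 70–79 μm and to 0 to 53.3 CPM (median 13.3) in the other sizes. COL1A2 and ACTA2 made up most of that sum and were detected in more than 50% of the oocytes of every size, CYP11A1 was at 8.70% and COL3A1 at 4.35% at 70–79 μm, COL1A1 and DCN had 0 counts there, and the part of this difference in the results below was not tested.

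The largest gap between 70–79 μm and the next group was that of ENSBTAG00000054291. It had a count in 17 of 23 oocytes of 70–79 μm (73.9%, exact 95% interval 51.6 to 89.8) and in 33.3 to 44.4% of the oocytes of each other size. Its level at 70–79 μm ranged from 0 to 4.47 CPM with a median of 0.912. In each other group the median oocyte had 0 counts of it.

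FCRLA, an intracellular Fc receptor-like protein known from B cells, was detected in 13 of 23 oocytes of 70–79 μm (56.5%, interval 34.5 to 76.8) and in 7 of 24 of 80–89 μm (29.2%), the next group. It had 0 counts in all 18 oocytes of 100–109 μm, which allows a share of up to 18.5%. Its level was 0.892 ± 1.31 CPM (SD, n = 23) at 70–79 μm, where the highest oocyte reached 4.85 CPM. The groups overlapped, since 10 oocytes of 70–79 μm also had 0 counts.

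TAL2, a basic helix-loop-helix transcription factor, was detected in 14 of 23 oocytes of 70–79 μm (60.9%) and in 5 of 14 of > 120 μm (35.7%), the next highest share. Its level was 0.799 ± 0.959 CPM (SD, n = 23) at 70–79 μm and its highest single value, 5.72 CPM, was in an oocyte of < 60 μm. The zinc finger gene ZNF74 had a smaller gap, with 52.2% at 70–79 μm and 45.8% at 80–89 μm.

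Among the genes without a symbol, ENSBTAG00000001000 was detected in 73.9% of the 70–79 μm oocytes and in 48% of those of 60–69 μm, with 0 of 18 at 100–109 μm. ENSBTAG00000047483 stood at 73.9% against 50% at > 120 μm. ENSBTAG00000006352 stood at 69.6% against 50% at 80–89 μm, and ENSBTAG00000038502 at 56.5% against 40% at 60–69 μm.

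The signalling genes were led by RGS4, a regulator that speeds the switching-off of G protein alpha subunits. RGS4 had the highest mean level of the 63 genes, 6.08 ± 8.89 CPM (SD, n = 23) at 70–79 μm against 1.6 CPM over the oocytes of all other sizes. It had no count in 11 of the oocytes and 2 to 220 counts in the other 12, the highest in the oocyte of 7427594 counts (29.6 CPM). Single oocytes of < 60 μm and of 100–109 μm reached 30.7 and 32.6 CPM. RGS4 was absent from the counts of all 19 oocytes of 110–119 μm (a share of up to 17.6% is allowed) and was counted in 1 of 14 of > 120 μm.

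The netrin receptor UNC5A and the receptor-type tyrosine phosphatase PTPRR were both detected in 12 of 23 oocytes of 70–79 μm, with 1.61 ± 2.92 and 1.25 ± 2.02 CPM (SD, n = 23). The doublecortin-like kinase DCLK1, which binds microtubules, was detected in 56.5% at 70–79 μm, 40% at 60–69 μm and 4.76% at 90–99 μm. ADAP2, which acts on the small GTPase ARF6, was detected in 60.9% at 70–79 μm and 44% at 60–69 μm and had no count in the 19 oocytes of 110–119 μm. CREG2, a secreted glycoprotein, had the same shares at 70–79 and 60–69 μm as ADAP2, but its mean level was highest at < 60 μm (1.31 CPM against 0.732 CPM at 70–79 μm).

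Coagulation factor VIII (F8) and FGD5, a guanine nucleotide exchange factor known from vessel endothelium, each had a count in 52.2% of the 70–79 μm oocytes and in 44% of those of 60–69 μm. F8 had 0.573 ± 0.854 CPM and FGD5 0.793 ± 1.22 CPM (SD, n = 23). AGRN, which encodes the basement membrane proteoglycan agrin, stood at 52.2% against 45.8% at 80–89 μm. The mean level of AGRN was 0.896 CPM at 70–79 μm and 0.963 CPM at 90–99 μm.

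The transporter genes SLC35E4 and SLC45A2 each had a count in 12 of 23 oocytes of 70–79 μm. SLC45A2, known from pigment cells, had a count in 1 of 21 oocytes of < 60 μm and in 6 of 14 of > 120 μm. TMEM95, known as a sperm protein of gamete fusion, was detected in 52.2% at 70–79 μm and in 42.9% at < 60 μm, with means of 0.464 and 0.746 CPM. TRIM14, an adaptor of antiviral signalling, was detected in 52.2% and 42.9% at 70–79 and > 120 μm.

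**Figure D1:**
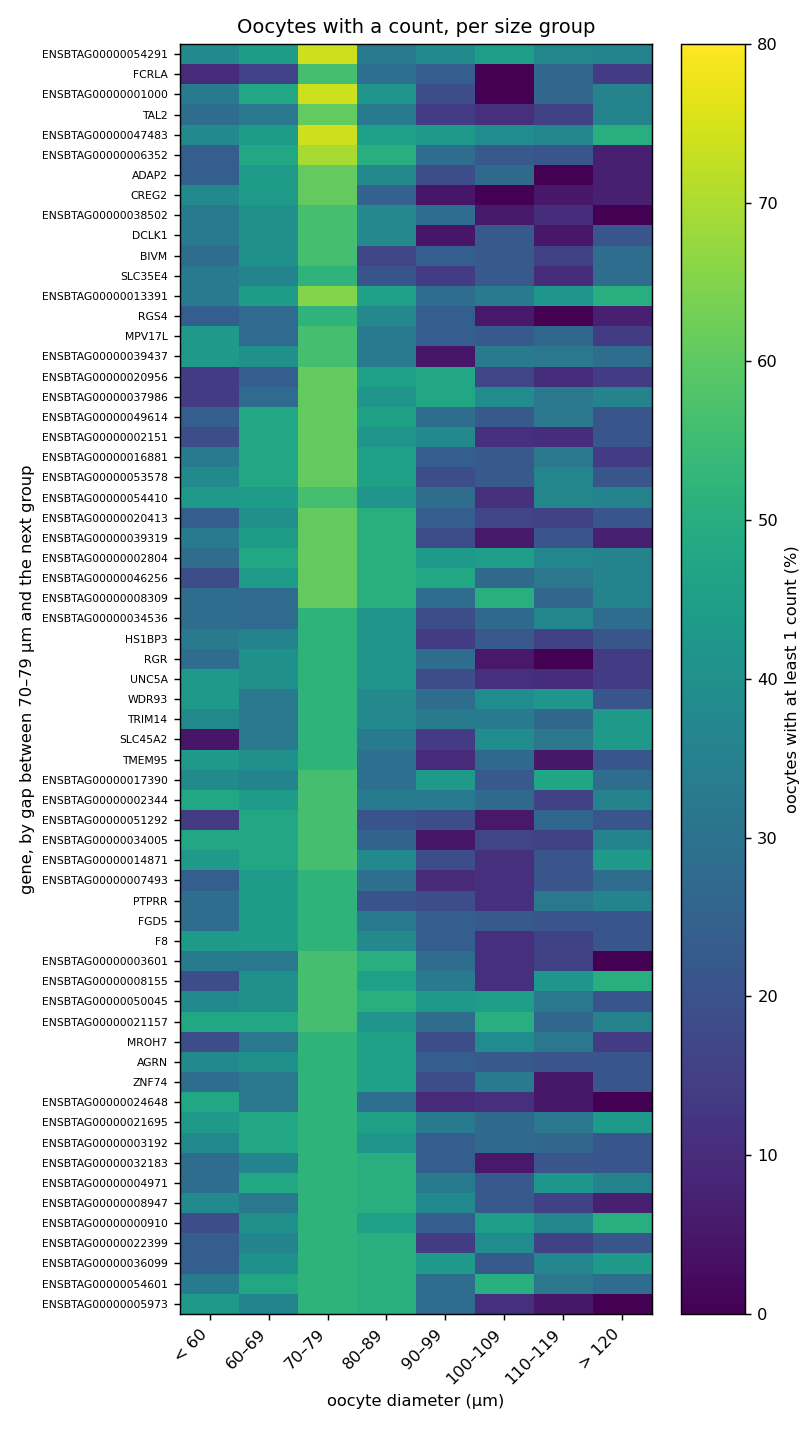
Each row is 1 of the 63 genes, ordered from the largest to the smallest gap, and each column is a size group by oocyte diameter in μm. The colour is the percentage of oocytes with at least 1 count, and outside 70–79 μm the columns 60–69 and 80–89 μm are the brightest, with medians of 40 and 41.7%.

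Most of the 63 genes lay close to the limit that chose them. At 70–79 μm 28 genes had a count in 12 of 23 oocytes (52.2%), 16 in 13, 14 in 14, and 5 in 15 to 17. The gap to the next group was 2.17 to 29.5 percentage points (median 9.32), at least 10 points for 31 genes and under 5 points for 11. In 20 genes another group stood at just 50%. The smallest gap, 2.17 points, was shared by 8 genes, among them ENSBTAG00000005973, ENSBTAG00000054601, ENSBTAG00000036099, ENSBTAG00000022399 and ENSBTAG00000000910. The exact 95% interval of the share at 70–79 μm overlapped that of at least 1 other group in all 63 genes.

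Just outside the limit, 53 genes were low in the other 7 groups and had a count in 11 of 23 oocytes of 70–79 μm (47.8%). These included SGK1, a serum and glucocorticoid-induced kinase (mean 2.13 CPM at 70–79 μm and 0.322 CPM elsewhere), the cadherin CDH11, the protein kinase C gene PRKCB, the lysyl oxidase LOXL4, the GDNF family receptor GFRA2, the cell cycle kinase CDK6, the hepatic methionine adenosyltransferase MAT1A and the coagulation and platelet adhesion genes PROC and SELP. INPP5E, AGBL1, OVOL2, MAMSTR, PROK2, GSTO2 and DRAM1 stood at the same share. A further 124 genes were detected in more than 50% of the oocytes at 70–79 μm and in 1 other group, 47 at 80–89 μm and 41 at 60–69 μm, and 39 of the 124 missed the limit by 1 oocyte.

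Over the 63 genes the median share was 33.3, 40, 56.5 and 41.7% in the 4 smaller groups, in order of size, and 23.8, 22.2, 26.3 and 21.4% in the 4 larger ones. The next highest share was at 60–69 or 80–89 μm in 44 of 63 genes, ties included.

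The levels were low. Of 1449 pairs of a gene and an oocyte at 70–79 μm, 822 had a count, and of these 28.2% were single counts, 48.1% were 2 to 5 counts and 3.41% were over 20. Mean levels at 70–79 μm were 0.348 to 6.08 CPM (median 1.14), against a median of 23.8 CPM over the 11953 genes detected in more than 50% of these oocytes. The mean level was 1.02 to 4.36 times that over the oocytes of other sizes (median 1.91), and over 2 times in 29 genes. With the highest oocyte of each gene left out at 70–79 μm, the median ratio was 1.5, 16 genes stayed over 2 and 8 fell under 1.

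Detection and level did not always have their maximum in the same group. The mean CPM was highest at 70–79 μm for 33 of the 63 genes, where 11.3% of all genes had their maximum, and at < 60 μm for 9. WDR93, TMEM95 and CREG2 had their highest mean at < 60 μm, FGD5 at 60–69 μm, SLC35E4 at 80–89 μm, TRIM14 and AGRN at 90–99 μm, and SLC45A2 at 100–109 μm. When counts were summed per size and replicate and scaled, 17 genes were highest at 70–79 μm in replicate 1 (8.58% of all genes), 20 in replicate 2 (14.9%) and 7 in both (1.28%). These were RGS4, ENSBTAG00000001000, ENSBTAG00000020956, ENSBTAG00000053578, ENSBTAG00000020413, ENSBTAG00000034536 and ENSBTAG00000024648. The replicate 1 sums rested in part on the oocyte of 7427594 counts, the deepest of 70–79 μm. Without it 19, 20 and 6 genes were highest (10.8, 14.9 and 2.09% of all genes), and of the 7 genes only ENSBTAG00000001000, ENSBTAG00000053578 and ENSBTAG00000020413 stayed highest in both replicates. The 3 that joined them were ENSBTAG00000054291, ENSBTAG00000013391 and UNC5A. The replicate 1 sum of RGS4 was 6.04 CPM without that oocyte, under the 6.24 CPM at < 60 μm, and that of ENSBTAG00000034536 went from 7.82 to 2.27 CPM. The choice of the genes used these counts, so nothing is read from the excess over all genes.

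In a single oocyte of 70–79 μm, 15 to 51 of the 63 genes had a count (median 36). The medians of the other groups were 20, 23, 25.5, 13, 10.5, 11 and 12, in order of size. The ranges overlapped in every group, with 2 to 52 genes per oocyte at 80–89 μm, and 20 of the 142 oocytes of other sizes reached the 70–79 μm median. Among the 23 oocytes of 70–79 μm the number of genes followed depth, with r = 0.55 and rho = 0.55 against log10 total counts (r = 0.52 within replicate 1 and 0.82 within replicate 2), while r was -0.01 and rho 0.02 against diameter. Within replicate 1 (n = 16) r against diameter was 0.09 and rho 0.12, and within replicate 2 (n = 7) they were -0.45 and -0.32. The number of genes averaged 38.5 ± 9.73 (SD, n = 16) in replicate 1 and 29.4 ± 10.4 (SD, n = 7) in replicate 2.

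**Figure D2:**
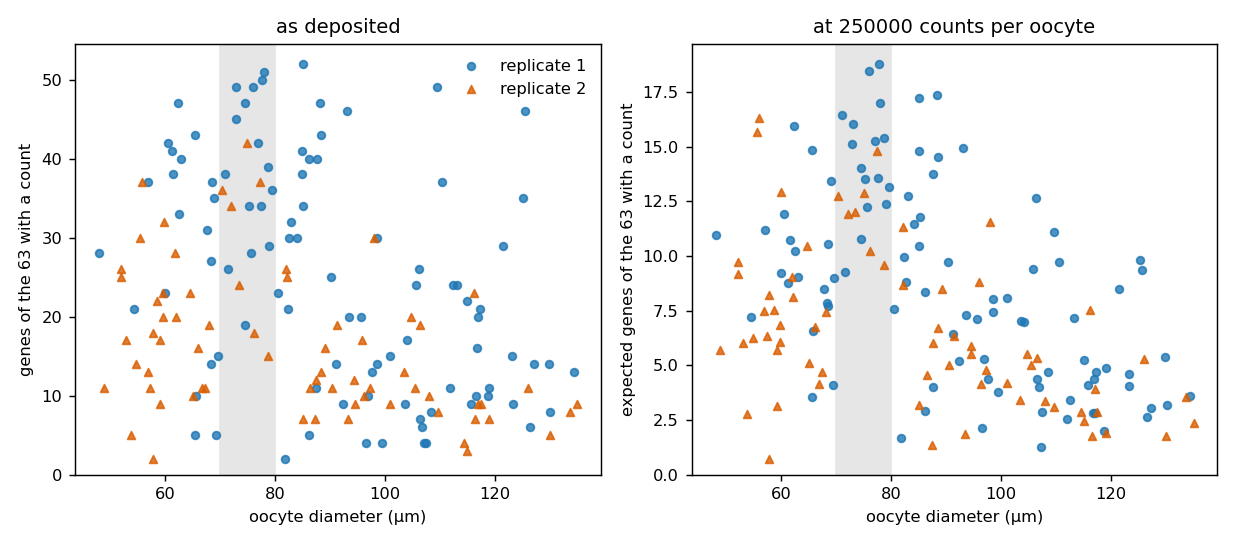
Points are single oocytes by diameter in μm, coloured by replicate, with 70–79 μm shaded. The left panel shows how many of the 63 genes had a count, from 15 to 51 at 70–79 μm, and the right panel the number expected at 250000 counts per oocyte, with a median of 13.5 at 70–79 μm and 8.74 and 8.73 at 60–69 and 80–89 μm.

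Depth was then set equal by calculating, for each gene and oocyte, the hypergeometric chance of at least 1 count in 250000 counts. None of the 63 genes met the rule at equal depth. Their mean levels at 70–79 μm, 0.348 to 6.08 CPM, were low for this depth. The outcome was thus nearly set in advance, and no conclusion is drawn from it. The expected share at 70–79 μm was 8.48 to 42.4% (median 21.3), so no gene reached 50% of the oocytes. The 55 genes (0.306%) that met the rule at this depth were all others. At full depth these 55 genes were detected in more than 50% of the oocytes of 3 to 8 size groups. The expected share was highest at 70–79 μm for 44 of the 63 genes and for 18.7% of all genes. These shares come from the counts that chose the genes, so nothing is read from this difference. The medians were 11.6, 12.8, 21.3, 13.9, 9.04, 8.39, 5.32 and 6.09% in order of size. The highest expected shares were those of ENSBTAG00000034536 (42.4%), RGS4 (39.5%) and ENSBTAG00000001000 (38.6%).

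**Figure D3:**
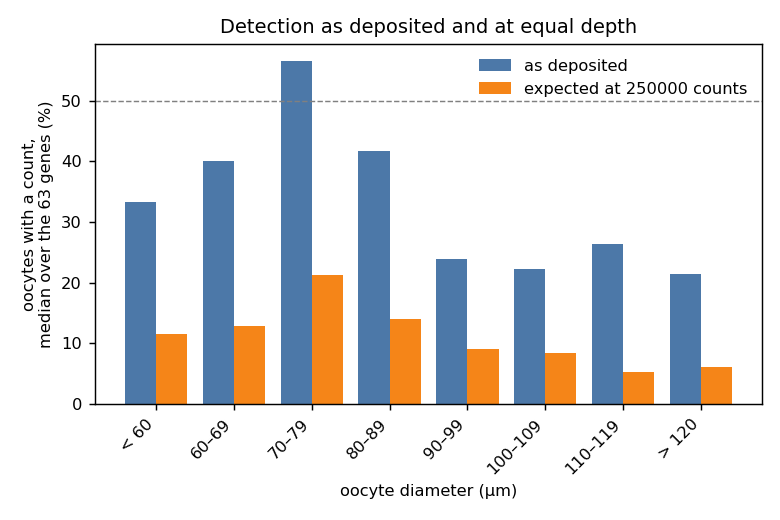
Bars give the median over the 63 genes of the percentage of oocytes with a count, by size group in μm, as deposited and at an equal depth of 250000 counts per oocyte; the dashed line marks 50%. The 70–79 μm bars are the highest of both kinds, 56.5 and 21.3%.

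The rule was applied next within each replicate. In replicate 1 alone 12 of the 63 genes met it, where 0.156% of all genes did, among them FCRLA, TAL2, ADAP2, MPV17L, TRIM14 and SLC45A2. In replicate 2 alone 20 met it, where 1.12% of all genes did, among them RGR, FGD5, F8 and ZNF74. No gene of the table met it in both replicates. A share over 50% at 70–79 μm was found for 53 genes in replicate 1 (66.5% of all genes), 27 in replicate 2 (64.9%) and 17 in both (62.8%). In replicate 1 the groups < 60, 60–69 and 80–89 μm also passed 50% for 27, 21 and 24 of the 63 genes. The < 60 μm group of replicate 1 held 3 oocytes.

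The share was highest at 70–79 μm for 27 genes in replicate 1 (3.69% of all genes), for 34 in replicate 2 (8.05%) and for 13 in both (0.718%). The rule used these counts, so nothing is read from these differences. The 13 genes were FCRLA, ADAP2, CREG2, TRIM14, SLC45A2, FGD5, ENSBTAG00000002151, ENSBTAG00000006352, ENSBTAG00000013391, ENSBTAG00000016881, ENSBTAG00000020413, ENSBTAG00000034005 and ENSBTAG00000037986. FCRLA had a count in 62.5% of the replicate 1 oocytes of 70–79 μm, against at most 41.7% in another size, and in 42.9% of those of replicate 2, against at most 22.2%. TAL2 stood at 75% in replicate 1 and at 28.6% in replicate 2, where another size reached 50%.

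Genes chosen in 1 replicate can be read in the other, which did not choose them. The 28 genes of replicate 1 had a median share of 28.6% at 70–79 μm in replicate 2, beside 27.8, 25 and 25% at < 60, 60–69 and 80–89 μm and 22.2, 14.3, 14.3 and 25% in the 4 larger groups, and 7 of them passed 50%. The 202 genes of replicate 2 had a median share of 56.3% at 70–79 μm in replicate 1, beside 66.7, 58.8 and 62.5% at < 60, 60–69 and 80–89 μm. The medians in the 4 larger groups of replicate 1 were 33.3, 36.4, 41.7 and 40%, and 112 of the 202 genes passed 50% at 70–79 μm. The share at 70–79 μm was above the mean of the other groups for 137 of the 202 genes in replicate 1, where 38.7% of all genes were, and for 19 of the 28 genes in replicate 2, where 37.3% were. A gene detected in every oocyte cannot lie above that mean, so the shares over all genes are no matched value for these genes.

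**Figure D4:**
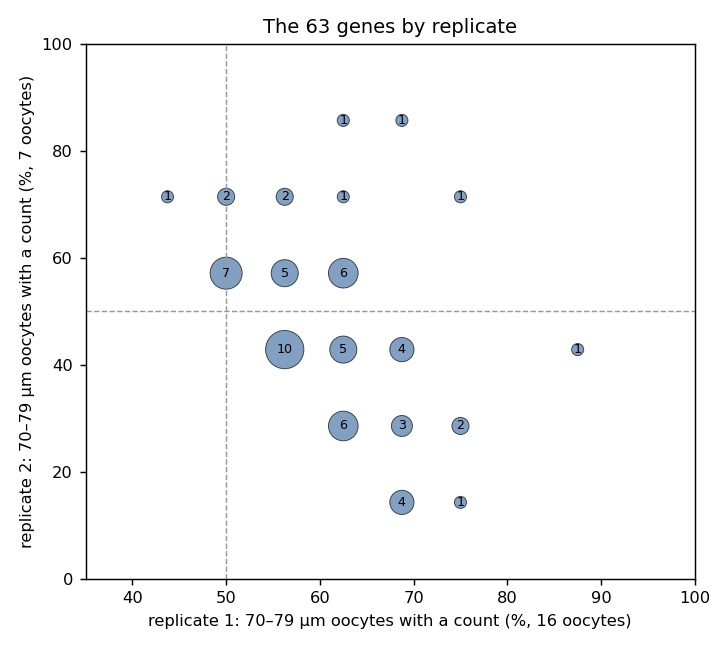
Each circle is placed at the percentage of 70–79 μm oocytes with a count in replicate 1 (x axis) and in replicate 2 (y axis), and its number and area give how many of the 63 genes share that place. Dashed lines mark 50%, and 17 genes lie above both.

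Levels in early against late growth do not involve the 70–79 μm group, although the same rule held each of these groups to 50% of its oocytes. For the largest oocytes the route of collection cannot be told apart from size. Counts were summed per size and replicate (16 sums), and the mean of 80–89 to > 120 μm was compared with the mean of < 60 and 60–69 μm. Of the 63 genes, 13 were lower in the larger oocytes (14.9% of all 14087 genes tested were) and 0 were higher (11.1%), in edgeR's quasi-likelihood test (p adjusted by Benjamini-Hochberg). At an unadjusted p under 0.05 there were 17 of the 63 genes, where 38.0% of all genes tested were. The median log2 fold change was -0.84 over the 63 genes and -0.10 over all genes tested. FSHR, the 1 granulosa marker tested, had a log2 fold change of -1.61 (edgeR adjusted p = 0.163). The endothelial marker CLDN5 had 1.84 (edgeR adjusted p = 0.163) and the blood and immune marker CD68 had 1.35 (edgeR adjusted p = 0.243). Of the stroma markers COL1A2 was higher in larger oocytes (1.82, edgeR adjusted p = 0.00566) and ACTA2 had -0.62 (edgeR adjusted p = 0.356). All 4 oocyte markers were higher in larger oocytes, with log2 fold changes of 2.03 for ACTL8, 0.75 for BMP15, 0.58 for BCAR4 and 0.58 for BTG4. The part of these markers in the result was not tested.

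RGS4 had 3.44 and 6.24 CPM in the replicate 1 sums and 3.19 and 1.64 CPM in the replicate 2 sums of 60–69 and < 60 μm. In the 10 sums from 80–89 μm upward it had 0 to 3.09 CPM, the highest at 80–89 μm, so the ranges overlapped. The log2 fold change was -4.01 (SE 0.60, adjusted p = 0.000128 by edgeR). CREG2 had 0.953 to 2.68 CPM in the 4 sums of smaller oocytes and 0 to 0.328 CPM in the 10 of larger ones, without overlap, and its log2 fold change was -5.10 (SE 0.82, edgeR adjusted p = 0.000245). ENSBTAG00000039319 fell by 3.06 on the log2 scale (SE 0.58, edgeR adjusted p = 0.000911).

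DCLK1 (-2.92), RGR (-2.98), the opsin of the retinal pigment epithelium, TMEM95 (-2.88) and ADAP2 (-2.47) were also lower in larger oocytes, with log2 fold changes as given. The others were ENSBTAG00000003601 (-3.03), ENSBTAG00000038502 (-2.97), ENSBTAG00000024648 (-2.63), ENSBTAG00000034005 (-2.39), ENSBTAG00000014871 (-2.29) and ENSBTAG00000008947 (-2.15), and the largest adjusted p of the 13 was 0.0473 by edgeR. For ENSBTAG00000008947 the 90–99 μm sums, 3.29 and 3.67 CPM, were above its < 60 and 60–69 μm sums (0.905 to 3.20 CPM). In replicate 1 ENSBTAG00000003601 had 3.28 and 2.41 CPM at 80–89 and 90–99 μm. At < 60 and 60–69 μm it had 1.41 and 0.666 CPM. In replicate 2 it had 4.16 and 1.51 CPM against 5.65 and 5.52 CPM. From 100–109 μm upward both genes had at most 0.674 CPM. Without the 60–69 μm sum of replicate 1 the log2 fold change was -0.57 for RGR and -0.99 for ENSBTAG00000024648. The call was lost in 17 of 21 alternatives for ADAP2, in 13 for ENSBTAG00000034005 and in 10 for RGR. Some sums of these genes were 0, so the size of a fold change depends on the small count that edgeR adds. FCRLA (log2 fold change 0.05, edgeR adjusted p = 0.849) and TAL2 (-1.28, SE 0.94, edgeR adjusted p = 0.338) did not pass the test.

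Without the replicate block 4 of the 13 calls held, where 3.31% of all genes tested were called, against 26.0% with the block. They were those of RGS4, CREG2, ENSBTAG00000003601 and ENSBTAG00000039319, and these 4 were called under every alternative in which they were tested. Without the < 60 μm sum of replicate 2 the median over the 63 genes was -0.01 and over all genes 0.02. In that fit 9 of the 63 genes were lower and 2 higher, where 1560 and 1837 of 14700 genes were, and ENSBTAG00000034005 turned to a log2 fold change of 1.62 (edgeR adjusted p = 0.54). The count of calls was 5 without the 60–69 μm sum of replicate 1, where 1923 of all 14769 genes tested were called. It was 8 without each of the < 60 μm sum of replicate 1 (15.2%), the 60–69 μm sum of replicate 2 (14.8%) and the > 120 μm sum of replicate 1 (21.0%), against 26.0% of all genes with every sum.

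**Figure D5:**
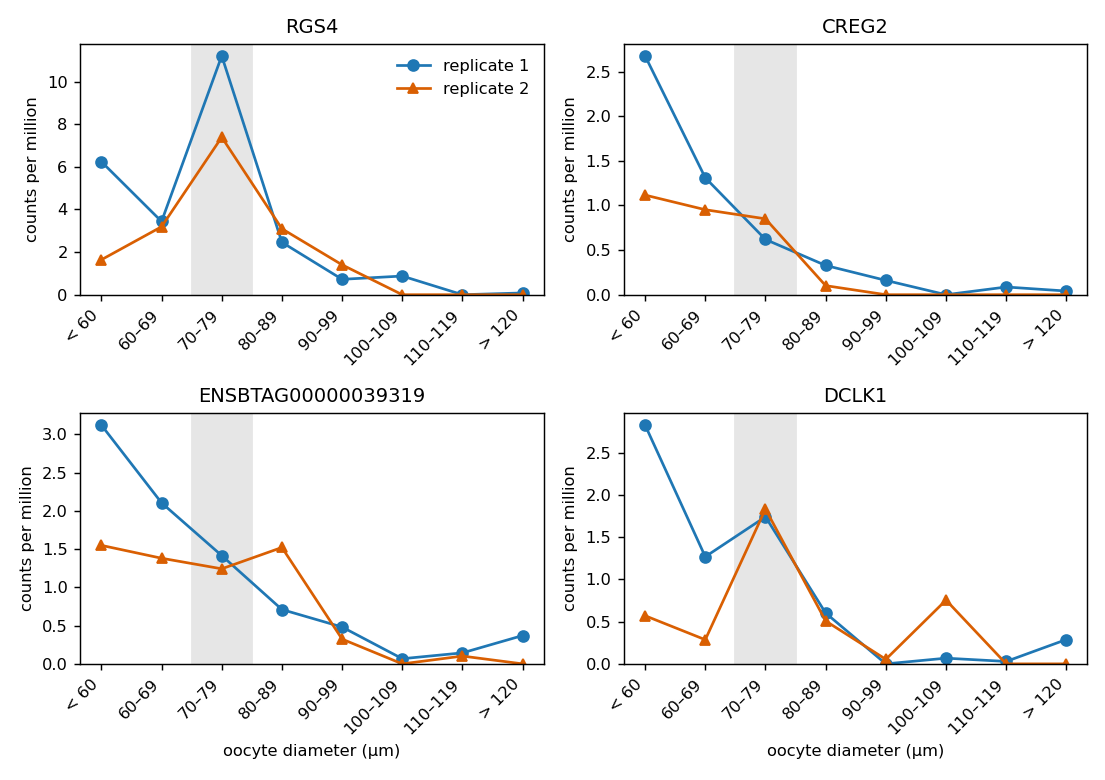
CPM of the summed counts of 4 genes by size group in μm, with replicate 1 as circles and replicate 2 as triangles and 70–79 μm shaded. RGS4 has its highest sum at 70–79 μm in both replicates, 11.2 and 7.39 CPM, of which the replicate 1 value is 6.04 CPM without the deepest oocyte, under the 6.24 CPM at < 60 μm, while CREG2 is highest at < 60 μm, 2.68 and 1.12 CPM.

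The groups next to 70–79 μm were compared with the groups farther away, again without 70–79 μm. The rule had held each of these groups to 50% of its oocytes, and it had left out 41 and 47 genes for passing 50% at 60–69 or 80–89 μm as well as at 70–79 μm, so the tested levels were limited by the choice of the genes. The contrast set the mean of 60–69 and 80–89 μm against the mean of the other 5 groups. Of the 63 genes, 4 were higher (2.40% of all genes tested were) and 0 were lower (1.80%). They were RGS4 (log2 fold change 3.82, SE 0.62, edgeR adjusted p = 0.00224), ENSBTAG00000038502 (3.78, SE 0.75, edgeR adjusted p = 0.00859), ENSBTAG00000003601 (3.28, SE 0.65, edgeR adjusted p = 0.00855) and ENSBTAG00000039319 (2.46, SE 0.60, edgeR adjusted p = 0.0262). The median log2 fold change was 0.71 over the 63 genes and 0.06 over all, and 14 of the 63 genes (22.2%) had an unadjusted p under 0.05, where 20.5% of all genes did. FSHR had a log2 fold change of 1.89 (edgeR adjusted p = 0.204), and of the 9 markers tested only the oocyte marker ACTL8 was called, lower at the neighbouring sizes (-1.54, edgeR adjusted p = 0.0399).

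RGS4 had 2.46 to 3.44 CPM in the 4 sums of the neighbouring sizes and 0 to 6.24 CPM in the 10 others, where only the replicate 1 sum of < 60 μm was above them. ENSBTAG00000038502 had 0.738 to 5.48 CPM in the neighbouring sums, and the highest came from 1 oocyte with 109 counts at 60–69 μm. ENSBTAG00000039319 was above both neighbouring sizes at < 60 μm, with 3.12 against 2.11 and 0.711 CPM in replicate 1. In replicate 2 it had 1.55 against 1.38 and 1.52 CPM. ENSBTAG00000003601 had 5.65 CPM at < 60 μm in replicate 2, against 5.52 and 4.16 CPM. In replicate 1 its < 60 μm sum, 1.41 CPM, lay between 0.666 and 3.28 CPM. None of the 4 calls held without the replicate block (edgeR adjusted p = 0.16 for RGS4), where 1 of all 14087 genes tested was called. One call was left without the 60–69 μm sum of replicate 2 (1.07% of all genes were called), and 8 genes were called without the 110–119 μm sum of replicate 1 (5.16%), against 591 of 14087 genes with every sum. DESeq2 called 6 of the 63 genes (8.56% of all genes).

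Replicate 2 was compared with replicate 1 in the same fit. Of the 63 genes, 3 were higher in replicate 2 (25.9% of all genes tested were) and 6 were lower (31.7%). At an unadjusted edgeR p under 0.05 there were 17, where 61.7% of all genes tested were. The 63 genes had low counts, so these shares are no matched value. The log2 fold change was negative for 50 of the 63 genes, with a median of -0.63, against -0.16 over all genes. Without the 70–79 μm sum of replicate 1 the medians were -0.51 and -0.14. The rule used these counts, with 16 of the 23 oocytes of 70–79 μm in replicate 1. Its part in the result was not tested. ENSBTAG00000037986 (log2 fold change 1.96), ENSBTAG00000038502 (1.76) and ENSBTAG00000004971 (1.37) were higher. ENSBTAG00000036099 (-3.43), ENSBTAG00000054601 (-2.41), TMEM95 (-2.20), ENSBTAG00000047483 (-2.16), HS1BP3 (-1.90) and ENSBTAG00000002804 (-1.61) were lower, with an edgeR adjusted p of at most 0.0435 for the 9 genes. ENSBTAG00000047483 had a count in 87.5% of the 70–79 μm oocytes of replicate 1 and in 42.9% of those of replicate 2. FSHR was also higher in replicate 2 (log2 fold change 3.63, edgeR adjusted p = 0.00071) and ACTA2 lower (-1.72, edgeR adjusted p = 0.00193), while COL1A2 had 0.17 (edgeR adjusted p = 0.694). Of the oocyte markers ACTL8 was lower (-1.68), BTG4 higher (0.46) and the other two were not called. DESeq2 called 5 of the 63 genes higher and 13 lower, where 61.0% of all genes were called. The count of calls was 3 without the 80–89 μm sum of either replicate (51.4 and 51.1% of all genes) and 5 without the replicate 1 sum of 60–69 or 100–109 μm (51.2 and 51.1%), against 57.7% of all genes with every sum, and read length and library batch cannot be told apart from the replicate.

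Within 70–79 μm the slope of each gene on diameter was tested over the 23 oocytes. Only RGS4 and ENSBTAG00000034536 of the 63 genes passed the filter on low counts, with log2 slopes of 0.20 (SE 0.17) and 0.18 (SE 0.15) per μm and an edgeR adjusted p of 0.999 for both. No gene of the 9680 tested was called (0%) by edgeR or by DESeq2, and 3.54 and 4.54% of genes had an unadjusted p under 0.05. Without the filter 3 of the 63 genes had an unadjusted p under 0.05, where 6.23% of 16091 genes did. They were SLC35E4 (-0.41 per μm), ENSBTAG00000024648 (0.45 per μm) and ENSBTAG00000001000 (0.33 per μm), and none passed after adjustment, while 0.00621% of all genes did.

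There were 8 deposited oocytes that the study did not keep but that passed its limits of 100000 counts and 2500 genes with more than 1 count, and the choice of the 63 genes did not use them. The study also excluded oocytes by their share of mitochondrial reads, a limit that was not examined here, and the part of quality in this comparison was not tested. The 2 of 70–79 μm had counts of 5 and 19 of the 63 genes, and an oocyte of 102.46 μm had counts of 43. Per 1000 genes detected, the 70–79 μm oocytes averaged 1.19 of the 63 genes and the 6 others 1.23 ± 1.08 (SD, n = 6). The difference was -0.0435 (two-sided exact permutation test, p = 0.857). It was positive at an equal depth of 100000 counts (1.16 genes, exact permutation p = 0.714) and with 11 other held-out oocytes in place of 6 (0.518, exact permutation p = 0.436). Without the oocyte of 102.46 μm it was 0.367 (exact permutation p = 0.476), and 2.73 genes at 100000 counts (exact permutation p = 0.286). The sign thus changed with the measure and with the oocytes included. With 2 oocytes against 6, this test cannot go below p = 0.0714.

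Families of the 63 genes were compared where an ID could be paired. Of 20 RGS genes 3 were paired. RGS9 was detected in 42.9 to 87% of the oocytes of each size and RGS11 in 57.1% at < 60 μm and in none of 110–119 μm, and RGS4 alone of the 3 was called in early against late growth. Of 21 coagulation and vessel genes 4 were paired and 3 tested, and none of F8, PROC and SELP was called in that comparison. Of 26 cadherins 15 were paired, 7 of them low in every size and 6 detected in more than 50% of the oocytes of every size, and of the 13 tested 3 were lower and 1 higher in larger oocytes, where 14.9 and 11.1% of all genes were. Of 8 G1 cyclin and kinase genes 7 were paired and 6 tested, and CCNE1 (log2 fold change 0.78) and CCNE2 (1.83) were higher in larger oocytes and the other four were not called. PRKCB (-3.60) and LOXL4 (-2.79), just outside the limit, were lower in larger oocytes, while the 1 netrin receptor and the 1 SGK gene paired, UNC5A and SGK1, were not called, nor were the 3 methionine cycle genes. The GDNF receptor GFRA2 was not tested after the filter.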

How the data were processed

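Single-oocyte libraries were trimmed by the authors with Trim Galore 0.6.6 (per the submitters' processing notes), aligned with HISAT2 to ARS-UCD1.2 and counted per gene in SeqMonk. Per oocyte, the deposited table holds raw counts without normalization. The treatment of multimapping reads, strand and overlapping genes is not given in the sources used here. The 63 genes and the gene lists were chosen with earlier results of these data known.

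Of 179 deposited oocytes, the 165 that the study lists were used, and 0 columns were of other series. Of 21218 gene IDs, those on several lines were summed, which concerned 2 of the 63 genes (ENSBTAG00000038502 and ENSBTAG00000032183). A gene was low in a size group if 50% or more of its oocytes had 0 counts. Symbols came from the study's supplementary gene lists, of which only part was used here. All 22 symbols matched protein-coding genes of the RefSeq table of ARS-UCD2.0, and sequences and promoters were not analysed here. Intervals are exact binomial (95%) and cover sampling of oocytes only.

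Counts were summed per size group and replicate and fitted with edgeR 4.0.16 (R 4.3.3): filterByExpr (minimum count 10, minimum total 15), TMM, quasi-likelihood test, size group with replicate as a block, Benjamini-Hochberg adjustment, threshold 0.05. The printed SE is the size of the log2 fold change divided by the root of the F statistic, which is unreliable for fold changes near 0 and is then left out. The block followed the library batches of the study, and the deviations of the 2 replicates from the size means correlated in all 28 pairs of sizes (r = 0.398 to 0.694, median 0.579). DESeq2 1.42.0, RLE, no filter, no block, single oocytes, all 179 oocytes and leaving out each sum were the alternatives. The hypergeometric calculation and permutation test used SciPy 1.17.1. The fits and the rule were tested on simulated data.

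Genes are named if they had 1 of the 10 largest or 5 smallest gaps, met the rule in both replicates, were called in a test, or carried a symbol within a role group. HS1BP3, RGR, MPV17L, WDR93, BIVM and MROH7, and genes listed by their replicate pattern or highest group, were named after their values were seen.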

Additional observations from a re-analysis of the deposited data

Results flagged for a closer look

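One oocyte of 116.2 μm stood apart from the other 6 oocytes of 110–119 μm in replicate 2. It had counts of 23 of the 63 genes, where the next had 9 and the lowest 3. Per 1000 genes detected it had 1.90, where the next had 0.837, and at 250000 counts it was expected to have 7.51, where the next had 3.93. Of 32 pairs of a group of oocytes and a measure 3 stood apart in this way, all for this oocyte, and chance alone marks about 1 in 20.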

How the results depend on the processing

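The number of genes meeting the detection rule was 95 by 1 random thinning to 250000 counts, with 0 of the 63 genes among them, and 55 by the hypergeometric chance, also with 0. It was 28 to 202 within 1 replicate, with 12 to 20 of the 63. It was 40 without the 70–79 μm oocyte with most of the genes (an alternative added after seeing the data), all 40 among the 63. Detection from 2 counts left 13 of the 63 and all 179 oocytes left 25. Leaving out each of the 23 oocytes of 70–79 μm in turn left 40 to 56 of the 63, and 35 met the rule in every case. Within replicate 2 the rule gave 98 genes at equal depth, and within both replicates 0 under every alternative run.

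For early against late growth the calls among the 63 genes were 4 without the replicate block (466 over all genes) and 2 with single oocytes as units (5776 over all genes), where 4 of the 63 were tested. They were 5 to 13 when each sum was left out (1923 to 3583 over all genes). For the neighbouring sizes they were 0 without the replicate block (1 over all genes) and 1 to 8 when each sum was left out (86 to 929 over all genes). They were 6 by DESeq2 (1206 over all genes), 3 with all 179 oocytes (341) and 3 of the 4 tested with single oocytes (3608), against 4. The main counts over all genes were 3665 and 591. For the replicates the calls among the 63 were 18 by DESeq2 (61.0% of all genes were called), 2 of the 4 tested with single oocytes (78.4% of all genes) and 3 to 11 when each sum was left out (7494 to 8198 over all genes). Without the filter the diameter slope was called for 1 gene of the table, not one of the 63. Without replicate 1 or 2 no gene was called on diameter, and none of the 63 genes passed the filter there, so neither fit bears on them. The held-out difference turned positive at 100000 counts (1.16, exact permutation p = 0.714) and with all held-out oocytes of at least 1000 counts (0.518, exact permutation p = 0.436). In alternatives added after seeing the data, without the oocyte of 102.46 μm, it was 0.367 (exact permutation p = 0.476), and 2.73 at 100000 counts (exact permutation p = 0.286). Without the deepest oocyte of 70–79 μm, also added, 6 of the 63 genes had their highest sum at 70–79 μm in both replicates, against 7. ENSBTAG00000034005 changed sign in early against late growth without the < 60 μm sum of replicate 2 (log2 fold changes of -3.08 to 1.62 when each sum was left out). The cause of these changes was not tested. Of 541 repeats of single calls, 404 stayed past the threshold and 136 lost it in the same direction. Where 1 of the 63 genes was detected at 70–79 μm the median was 3 counts.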
